A study of Mus musculus with 10 samples.

Results

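The 50 genes described here build the early secretory pathway, from the signal recognition particle and the Sec61 channel to the COPII and COPI vesicle coats and their cargo receptors. They were taken by a rule on gene symbols out of 7417 genes named on the array, and they were read by 64 of the 9977 probe sets that were not array controls. A probe set is a group of short oligonucleotides on the array that together report one value for a transcript. A further 5 probe sets carried a matching symbol beside other symbols and were not counted as members. Of the 64 probe sets, 61 probe sets of 49 genes were bright enough to be tested. The other 3, for Ssr4 (101511_at) and for additional probe sets of Arf3 (96587_at) and Arf6 (104179_at), did not exceed the intensity floor on enough arrays and have no test.

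A protein bound for secretion is recognised by the signal recognition particle as its signal peptide leaves the ribosome, handed to the receptor on the endoplasmic reticulum, and threaded through the Sec61 channel, where the translocon-associated proteins (Ssr genes) and Tram1 assist. Inside, signal peptidase removes the signal peptide and the oligosaccharyltransferase attaches N-linked sugars. COPII vesicles, started by the Sar1 GTPases, then carry cargo to the Golgi, and COPI vesicles, started by some of the Arf GTPases, carry material back. Hepatocytes use this route for albumin, clotting factors and lipoproteins, and Sar1b is known for its part in moving large lipoprotein particles.

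RNA was taken from whole liver of 5 Scd1-null mice (Scd1 -/-, mixed 129 and C57BL/6J background) and 5 wild-type mice (Scd1 +/+, C57BL/6J), with each mouse on its own Affymetrix mouse GeneChip array. All were female, 6 weeks old and fed chow without a fast. Scd1 encodes stearoyl-CoA desaturase, which makes monounsaturated from saturated fatty acids. Genotype cannot be told apart from strain background, nor from chip lot, since each genotype had a lot of its own. In whole tissue, fewer cells of a type and less RNA per cell cannot be told apart either.

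The Scd1 probe set 94056_at averaged 419 ± 308 in Scd1-null livers and 17520 ± 2613 in wild-type livers (SD, n = 5 each), and 94057_g_at showed the same order. The third Scd1 probe set, 94058_r_at, lay near the floor in both groups. Summed intensity of 7 hepatocyte marker probe sets ranged over 106222 to 121129 in Scd1-null livers and 105560 to 123004 in wild-type livers. These sums rest on values near the top of the normalized scale, which Alb reached on all arrays but that of Scd1-null mouse 2, so they do not resolve small differences. Apob differed by 0.57 (adjusted p = 0.195). Across the marker lists, limma called 0 of the 44 marker probe sets in 10 cell type lists, with 8 at an unadjusted p under 0.05. Among all 7569 tested probe sets, 1966 had an unadjusted p under 0.05. For B and plasma cell markers, a secretory cell type, the sum ranged over 17779 to 21014 in Scd1-null livers and 19353 to 20736 in wild-type livers, and for Kupffer and macrophage markers over 11688 to 12776 in Scd1-null livers and 12177 to 19511 in wild-type livers, where the highest sum was that of mouse 5. Endothelial markers lay above 0 at 4 of 4 probe sets, with a median difference of 0.27 and sums of 4618 to 5850 in Scd1-null livers and 4202 to 5199 in wild-type livers. In the other direction, all 6 tested Kupffer and macrophage probe sets lay below 0 (median -0.14), as did all 4 tested stellate probe sets (median -0.20). The part of other cell types in the results was not tested. Trimmed mean intensity of the arrays as deposited lay between 1515 and 1628 in Scd1-null mice and between 1360 and 1542 in wild-type mice. The times of hybridisation split the arrays into 3 fluidics runs. Run 1 held Scd1-null mice 1 to 4, run 2 held Scd1-null mouse 5 with wild-type mice 1 to 3, and run 3 held wild-type mice 4 and 5. A comment in the array settings says that evaporation made the cRNA amount inaccurate for wild-type mouse 3.

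Genes of protein translocation, N-glycosylation and both coats were among those higher in Scd1-null livers, but within each step most probe sets were not called. With limma and an adjusted p under 0.05, 8 of the 61 tested probe sets (13.1%), of 7 genes, rose in Scd1-null livers, against 3.57% of all 7569 tested probe sets on the array. Only Tmed4 fell (1 of 61, 1.64%), against 2.76% of all. The 8 that rose were read by 2 probe sets of Ssr3 and 1 each of Ssr1, Tram1, Rpn2, Sar1b, Copg1 and Tmed7. Values of all 5 Scd1-null mice lay above those of all 5 wild-type mice at 6 member probe sets (9.84%), against 4.03% of all, and below them at 3 (4.92%), against 4.1% of all. The log2 difference, Scd1-null minus wild-type, was above 0 at 39 of 61 member probe sets (63.9%), against 47% of all, and its median was 0.07 over the members and -0.02 over all tested. The differences were modest: called ones lay between -0.28 and 0.76 on the log2 scale.

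**Figure D1:**
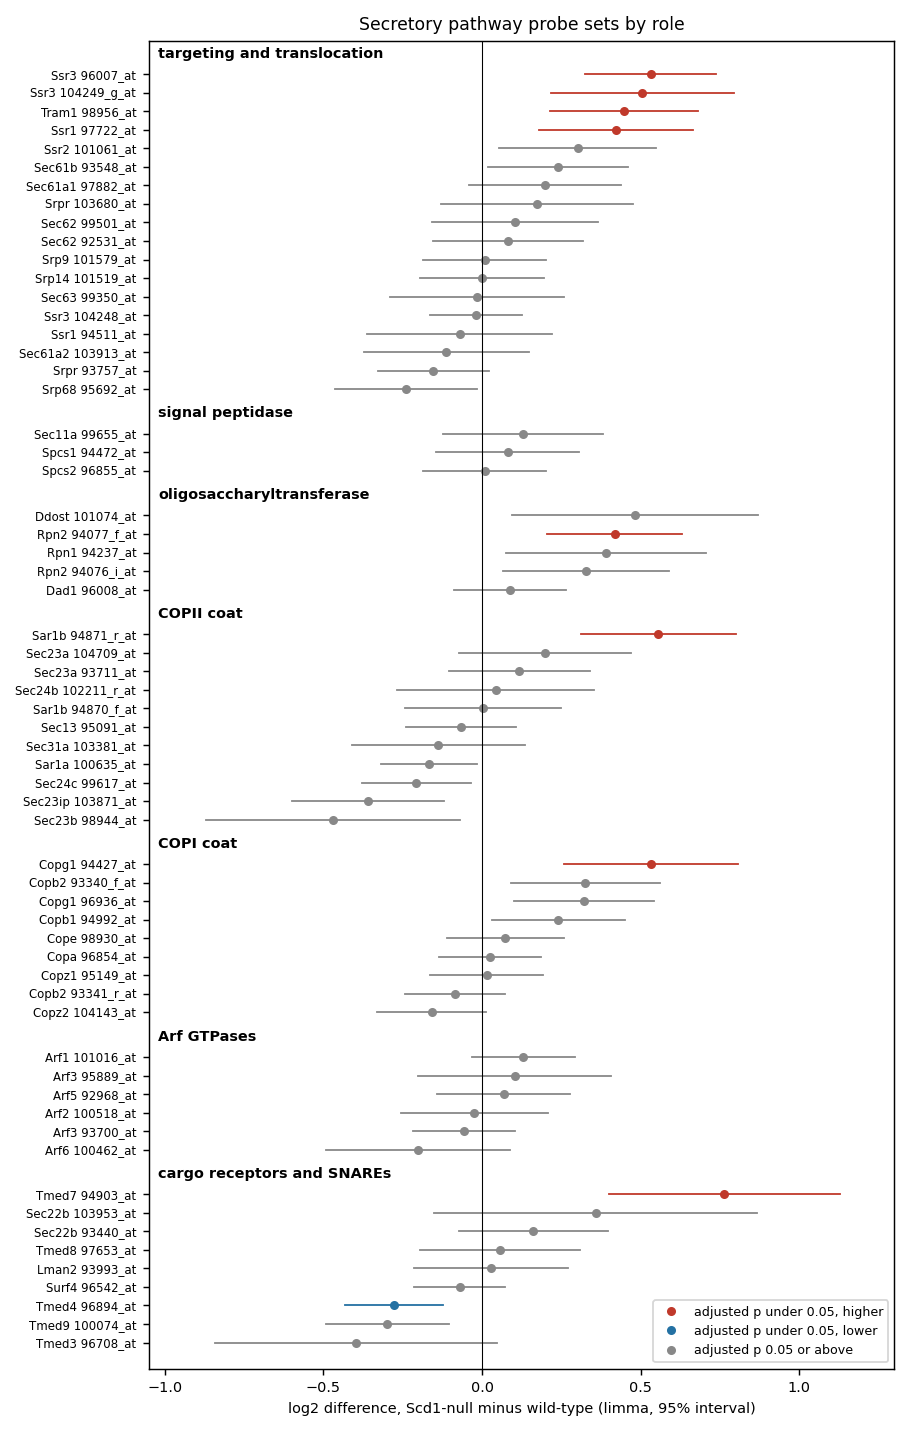
Log2 difference in normalized intensity, Scd1-null minus wild-type, for the 61 tested probe sets, grouped by role, with 95% intervals from limma (5 mice per genotype). The 8 red points rose, the blue point (Tmed4) fell, and the 52 grey points were not called. The oligosaccharyltransferase points all lie above 0 with a median of 0.39, while the COPII points spread from -0.47 to 0.56.

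Whether the probe sets were called depended on how the fluidics run entered the fit. With the run as a random block, all 8 remained called higher and 2 were called lower, beside 376 higher and 325 lower among all 7569 tested. Runs 1 and 3 each held a single genotype. That fit still uses the contrast between runs, so it cannot tell genotype from run. When the run was fitted as a block, the member calls were lost, as were nearly all calls on the array, so this loss is not particular to the members. That fit leaves Scd1-null mouse 5 against wild-type mice 1 to 3 as the information on genotype, so it rests on a single Scd1-null mouse. The median member difference was then 0.12, against -0.01 over all tested. With only the 4 arrays of run 2 these medians were also 0.12 and -0.01, and the calls were again lost across the array, members included. All 9 called differences kept their sign within run 2, and Scd1-null mouse 5 lay above each of the 3 wild-type mice of its run at all 8 probe sets called higher. These probe sets were called with the same arrays, so this order is no independent check. Where the groups did not overlap, it was fixed beforehand. The within-run values are given beside each member probe set whose values are printed per mouse, and the part of the run in these results was not tested beyond them.

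Targeting and translocation, the role group with the most tested probe sets, also held the most calls. Of the 18 tested probe sets for targeting and translocation, 4 rose: 2 of Ssr3 and 1 each of Ssr1 and Tram1. The median difference of the 18 was 0.09, and those not called lay between -0.24 and 0.30. Ssr3 encodes the gamma subunit of the translocon-associated protein complex, which sits beside the Sec61 channel. Its probe set 96007_at read 4612, 4980, 4563, 4178 and 5089 in Scd1-null mice 1 to 5, against 3736, 3586, 2706, 2964 and 3291 in wild-type mice 1 to 5. The groups did not overlap, and the lowest Scd1-null value (4178, mouse 4) lay above the highest wild-type value (3736, mouse 1). The difference was 0.53 on the log2 scale, 1.44-fold (SE 0.10, adjusted p = 0.00958, limma; exact permutation p = 0.00794, the smallest that 5 mice against 5 can give), and within run 2 it was 0.62 (adjusted p = 0.168 with the run as a block). This call was kept when any single mouse was left out.

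The second Ssr3 probe set, 104249_g_at, read 3184, 3414, 3063, 2960 and 3401 in Scd1-null mice, against 2798, 2867, 2039, 2135 and 1668 in wild-type mice. The groups did not overlap, though wild-type mice 1 and 2 came close. The difference was 0.50 (SE 0.13, adjusted p = 0.0418, limma), 0.42 within run 2 (adjusted p = 0.346 with the run as a block). The call was lost without any one Scd1-null mouse (adjusted p 0.053 to 0.102) and without wild-type mouse 3 or 5 (0.0533 to 0.098). The third Ssr3 probe set, 104248_at, averaged 4387 ± 201 in Scd1-null livers and 4447 ± 281 in wild-type livers, a difference of -0.02 (95% interval -0.16 to 0.13, adjusted p = 0.889) whose sign turned under 3 other scalings.

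Ssr1, the alpha subunit of the same complex, is read by 97722_at and 94511_at. At 97722_at the values were 1729, 1795, 1988, 1487 and 1957 in Scd1-null mice, against 1535, 1408, 1224, 1422 and 1108 in wild-type mice. The groups overlapped, since Scd1-null mouse 4 lay below wild-type mouse 1. The difference was 0.42 (SE 0.11, adjusted p = 0.0439, limma; exact permutation p = 0.0159), and 0.50 within run 2 (adjusted p = 0.296 with the run as a block). It was not called without Scd1-null mouse 1, 2, 3 or 5 (adjusted p 0.0745 to 0.104) or wild-type mouse 1, 2, 3 or 5 (0.05001 to 0.0984). The other probe set, 94511_at, differed by -0.07 (adjusted p = 0.773). The Ssr1 promoter is printed to show the sequence around the start of a translocation gene that was called. It lies at chr13:37994159-37994458 on the minus strand of GRCm38.p6, from RefSeq, covering 250 bases before and 50 after the start. Here and in the promoters that follow, capitals mark CCAAT and CCACG on either strand (CCAAT reads ATTGG and CCACG reads CGTGG where the match is on the other strand). The Ssr1 window holds CCACG in 2 places and no CCAAT.
Ssr1: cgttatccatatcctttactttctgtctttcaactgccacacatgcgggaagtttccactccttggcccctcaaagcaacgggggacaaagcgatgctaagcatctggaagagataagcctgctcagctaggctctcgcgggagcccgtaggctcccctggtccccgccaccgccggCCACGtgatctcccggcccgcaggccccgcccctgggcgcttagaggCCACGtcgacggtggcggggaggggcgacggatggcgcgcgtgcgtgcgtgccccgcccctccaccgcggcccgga

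Tram1 encodes a membrane protein of the endoplasmic reticulum that contacts nascent chains as they enter the Sec61 channel. It read 6157, 6666, 5377, 4568 and 6030 in Scd1-null mice, against 4855, 4556, 3630, 4131 and 3889 in wild-type mice (98956_at). Scd1-null mouse 4 fell within the wild-type values, and the other 4 Scd1-null mice lay above all wild-type mice. The difference was 0.45 (SE 0.11, adjusted p = 0.0299, limma; exact permutation p = 0.0159), and 0.48 within run 2 (adjusted p = 0.3 with the run as a block). The call was lost without Scd1-null mouse 1, 2 or 5 (adjusted p 0.0702 to 0.0814) or wild-type mouse 3 or 5 (0.0501 to 0.0738).

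The remaining translocation genes were not called. The channel subunits Sec61b and Sec61a1 differed by 0.24 and 0.20, and Sec61a2, a second alpha subunit gene, by -0.11. Ssr2, the beta subunit of the translocon-associated complex, differed by 0.30 (adjusted p = 0.12). Among genes of the signal recognition particle, Srp68 differed by -0.24 (adjusted p = 0.164), Srp9 by 0.01 and Srp14 by 0.00. The receptor subunit Srpr had 2 probe sets, with differences of 0.17 and -0.15. Sec62 (0.10 and 0.08) and Sec63 (-0.02), which serve post-translational translocation, lay close to 0.

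Signal peptidase genes were not called: limma called 0 of 3 probe sets, with 0 at an unadjusted p under 0.05. Sec11a, a catalytic subunit, differed by 0.13, and the accessory subunits Spcs1 and Spcs2 by 0.08 and 0.01.

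The oligosaccharyltransferase probe sets lay above 0 at 5 of 5, with a median of 0.39, and 1 of them rose. The call was Rpn2, which encodes ribophorin II, a subunit of the enzyme complex. Rpn2 read 6273, 6041, 5409, 5501 and 5584 in Scd1-null mice, against 4531, 3998, 3507, 5287 and 4396 in wild-type mice (94077_f_at). The groups did not overlap, with wild-type mouse 4 just below the lowest Scd1-null mouse. The difference was 0.42 (SE 0.10, adjusted p = 0.0275, limma), and 0.48 within run 2 (adjusted p = 0.209 with the run as a block). It was lost without Scd1-null mouse 1, 2 or 5 (adjusted p 0.0582 to 0.0733) or wild-type mouse 1, 2 or 3 (0.05001 to 0.0621). The ending _f_at marks probe sets whose oligonucleotides can match more than 1 related sequence, so this value may not be Rpn2 alone. The other Rpn2 probe set, 94076_i_at, differed by 0.33 (adjusted p = 0.112). The upstream of 2 Rpn2 promoters in RefSeq, chr2:157278848-157279147 on the plus strand, is printed because it holds the most CCAAT letters among the called genes, in 3 places.
Rpn2: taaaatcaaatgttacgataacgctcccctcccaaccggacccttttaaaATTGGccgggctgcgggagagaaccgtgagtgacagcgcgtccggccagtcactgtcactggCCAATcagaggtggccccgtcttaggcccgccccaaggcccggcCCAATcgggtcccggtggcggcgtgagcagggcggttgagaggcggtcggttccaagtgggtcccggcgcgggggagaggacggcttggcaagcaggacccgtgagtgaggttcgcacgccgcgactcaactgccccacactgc

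Ddost and Rpn1, subunits of the same enzyme, had differences of 0.48 and 0.39, beside 0.42 for Rpn2, without being called. Ddost read 957, 739, 737, 541 and 897 in Scd1-null mice, against 554, 503, 400, 748 and 570 in wild-type mice (101074_at). Wild-type mouse 4 stood among the Scd1-null values, and Scd1-null mouse 4 among the wild-type values. The difference was 0.48 (adjusted p = 0.114, limma), and 0.90 within run 2. Without wild-type mouse 4 it was 0.60 and called (adjusted p = 0.0388, limma), the only call in 10 removals of 1 mouse (largest adjusted p 0.23). Rpn1 read 2427, 2604, 2169, 2018 and 2663 in Scd1-null mice, against 2215, 1332, 1695, 2333 and 1633 in wild-type mice (94237_at). Here wild-type mice 1 and 4 overlapped the Scd1-null mice, and the difference was 0.39 (adjusted p = 0.115, limma), and 0.64 within run 2. Without wild-type mouse 4 it was 0.48 and called (adjusted p = 0.0389, limma), again the only call in 10 such removals (largest adjusted p 0.223). That removal also raised the calls over all tested probe sets, from 270 higher and 209 lower to 497 and 453. Dad1, a small subunit, differed by 0.09.

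**Figure D2:**
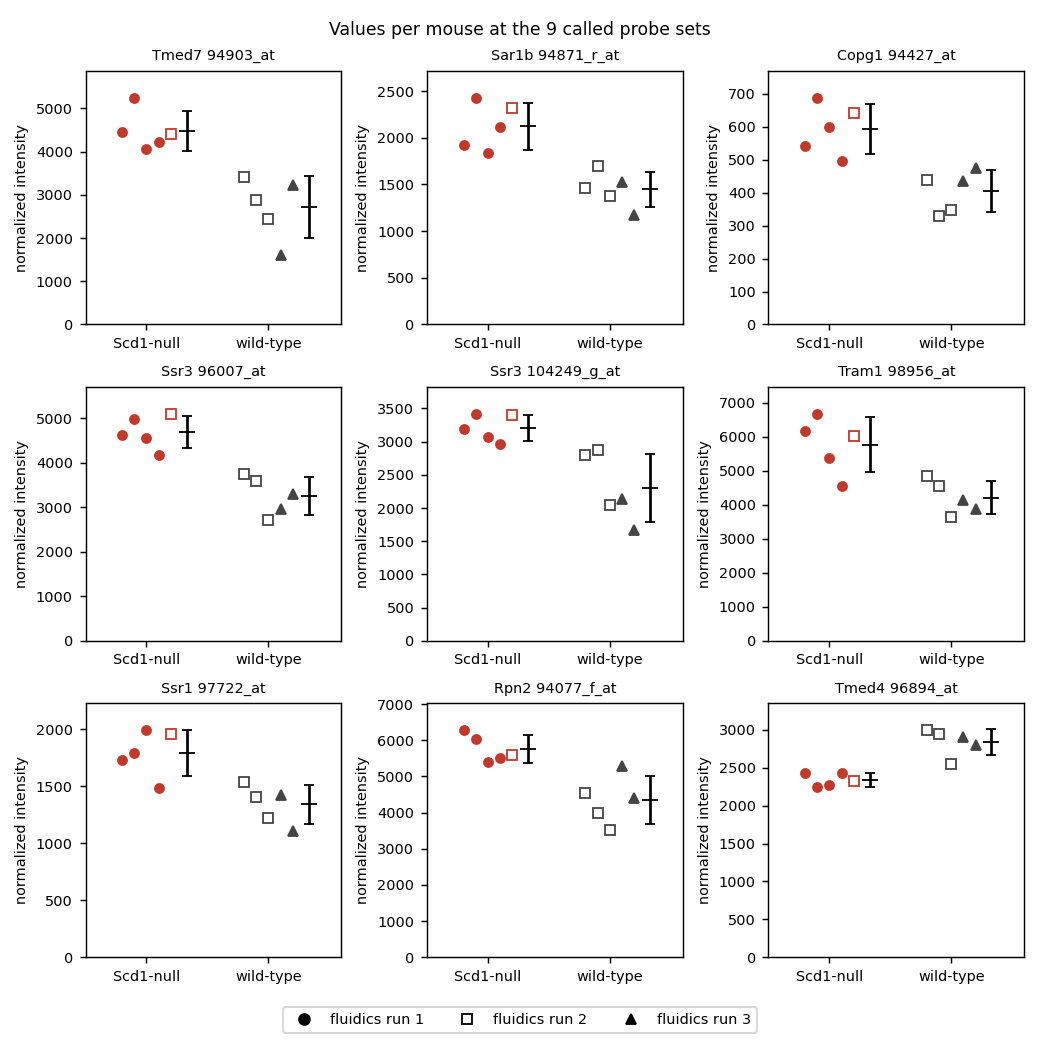
Normalized intensity (linear scale from 0) of each mouse at the 9 called probe sets, with Scd1-null mice on the left and wild-type mice on the right of each panel. Symbols give the fluidics run and bars the mean and SD (n = 5). The groups overlap only for Tram1 and Ssr1, and Tmed4 is the panel with lower Scd1-null values.

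COPII genes went both ways: 5 of 11 differences lay above 0, the median was -0.07, and 1 probe set rose. That one was Sar1b, the GTPase that starts coat assembly. Sar1b read 1918, 2428, 1840, 2116 and 2318 in Scd1-null mice, against 1459, 1695, 1377, 1524 and 1178 in wild-type mice (94871_r_at). The groups did not overlap. The difference was 0.56, 1.47-fold (SE 0.11, adjusted p = 0.0168, limma; exact permutation p = 0.00794), and 0.62 within run 2 (adjusted p = 0.204 with the run as a block). It was lost without Scd1-null mouse 2 (adjusted p = 0.0505). The other Sar1b probe set, 94870_f_at, averaged 2501 ± 273 in Scd1-null livers and 2508 ± 405 in wild-type livers, a difference of 0.00 (95% interval -0.24 to 0.25). The close paralog Sar1a (100635_at) differed by -0.17 (adjusted p = 0.15), with all 5 Scd1-null mice below the wild-type mice; the rising Sar1b probe set ends in _r_at, an ending for oligonucleotides chosen under relaxed design rules. The Sar1b promoter, chr11:51763413-51763712 on the plus strand, is printed as that of the called COPII gene.
Sar1b: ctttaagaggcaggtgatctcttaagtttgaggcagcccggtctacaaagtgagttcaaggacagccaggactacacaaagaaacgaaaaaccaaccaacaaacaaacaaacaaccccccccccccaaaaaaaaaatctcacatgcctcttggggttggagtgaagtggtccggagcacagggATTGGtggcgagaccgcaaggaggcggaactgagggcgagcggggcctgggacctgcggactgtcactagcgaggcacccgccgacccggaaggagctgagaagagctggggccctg

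Among the coat proper, Sec23b had the largest difference below 0 that was not called. Sec23b encodes an inner coat subunit that stimulates GTP hydrolysis by Sar1. It read 2201, 2785, 1848, 1625 and 3138 in Scd1-null mice, against 4071, 2565, 2777, 3811 and 2659 in wild-type mice (98944_at). Wild-type mice 1 and 4 were high and the other 3 lay among the Scd1-null mice. The difference was -0.47 (adjusted p = 0.131), -0.25 without wild-type mice 1 and 4, and 0.03 within run 2. Sec23ip, which binds Sec23 proteins, read 363, 299, 355, 254 and 337 in Scd1-null mice, against 455, 498, 266, 506 and 481 in wild-type mice (103871_at). These lie near the floor of 351, which 3 Scd1-null mice and wild-type mouse 3 did not exceed. The difference was -0.36 (adjusted p = 0.0684, limma), and -0.46 without wild-type mouse 3, where it was called (adjusted p = 0.0286). Within run 2, which holds wild-type mouse 3, the difference was -0.29. The paralog Sec23a differed by 0.20 and 0.12 at its 2 probe sets. The cargo-binding subunits Sec24c and Sec24b differed by -0.21 and 0.04, and the outer coat subunits Sec31a and Sec13 by -0.14 and -0.07. Sec24c, like Sar1a, had all 5 Scd1-null mice below the wild-type mice without passing the test (adjusted p = 0.123).

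COPI genes had 7 of 9 differences above 0 and a median of 0.07, and 1 probe set, of Copg1, rose. Copg1 encodes the gamma-1 subunit of the coatomer. It read 543, 688, 600, 495 and 643 in Scd1-null mice, against 440, 328, 349, 436 and 475 in wild-type mice (94427_at). The groups did not overlap, although wild-type mice 2 and 3 were at the floor, which narrows the wild-type spread and slightly understates the difference. It was 0.53 (SE 0.13, adjusted p = 0.0278, limma), and 0.76 within run 2 (adjusted p = 0.173 with the run as a block). It was lost without Scd1-null mouse 2, 3 or 5 (adjusted p 0.053 to 0.0781) or wild-type mouse 1, 2 or 3 (0.0515 to 0.071). With the floor at the 10th percentile the difference was 0.56 and the call was closer to the threshold (adjusted p = 0.0462, limma). The other Copg1 probe set, 96936_at, had a difference of 0.32 (adjusted p = 0.0734), and was called without Scd1-null mouse 4 (adjusted p = 0.0318). The Copg1 promoter, chr6:87887690-87887989 on the plus strand, is printed as that of the called COPI gene.
Copg1: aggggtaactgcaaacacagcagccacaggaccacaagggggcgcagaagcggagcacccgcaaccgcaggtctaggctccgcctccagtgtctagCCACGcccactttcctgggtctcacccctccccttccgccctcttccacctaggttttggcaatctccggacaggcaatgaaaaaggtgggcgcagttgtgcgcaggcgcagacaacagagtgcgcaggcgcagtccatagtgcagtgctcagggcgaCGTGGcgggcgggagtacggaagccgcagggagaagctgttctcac

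Other coatomer genes were not called. Copb1 differed by 0.24 (adjusted p = 0.137), and Copb2 by 0.33 (93340_f_at, adjusted p = 0.0858) and -0.09 (93341_r_at). Cope, Copa and Copz1 lay between 0.02 and 0.07, and Copz2, a second zeta subunit gene, at -0.16. The Arf GTPases, some of which recruit the coatomer, were not called either: limma called 0 of 6 probe sets, with 0 at an unadjusted p under 0.05. Differences of the 6 ran from -0.20 (Arf6) to 0.13 (Arf1).

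Cargo receptors and SNAREs held both the largest rise and the only fall. Tmed7 and Tmed4 belong to the p24 family, membrane proteins that travel in COPI and COPII vesicles and sort cargo. Tmed7 read 4459, 5244, 4065, 4224 and 4399 in Scd1-null mice, against 3406, 2882, 2447, 1614 and 3235 in wild-type mice (94903_at). The groups did not overlap, and wild-type mouse 4 was the lowest. The difference was 0.76, 1.70-fold (SE 0.17, adjusted p = 0.0217, limma; exact permutation p = 0.00794), and 0.61 within run 2 (adjusted p = 0.366 with the run as a block). It was lost without Scd1-null mouse 2 or 5 (adjusted p 0.052 to 0.0639) or wild-type mouse 3 (0.0544).

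Tmed4 went the other way. It read 2437, 2240, 2271, 2435 and 2323 in Scd1-null mice, against 2992, 2952, 2552, 2907 and 2797 in wild-type mice (96894_at). All Scd1-null mice lay below all wild-type mice. The difference was -0.28 (SE 0.07, adjusted p = 0.039, limma; exact permutation p = 0.00794), and -0.28 within run 2 (adjusted p = 0.354 with the run as a block). The call was lost without any one Scd1-null mouse (adjusted p 0.0502 to 0.1) or without wild-type mouse 1, 2 or 5 (0.0501 to 0.0921), and on the deposited scale (-0.17, adjusted p = 0.221). The Tmed4 promoter, chr11:6274788-6275087 on the minus strand, is printed as that of the only gene that fell.
Tmed4: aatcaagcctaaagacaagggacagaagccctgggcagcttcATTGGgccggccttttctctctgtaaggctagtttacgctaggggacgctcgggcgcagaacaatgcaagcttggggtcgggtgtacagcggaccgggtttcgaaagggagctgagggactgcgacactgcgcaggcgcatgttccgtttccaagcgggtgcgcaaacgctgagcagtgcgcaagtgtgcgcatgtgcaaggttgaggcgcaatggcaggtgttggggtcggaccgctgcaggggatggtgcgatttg

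The p24 genes as a group had no common direction. Tmed9 differed by -0.30 (adjusted p = 0.0632), Tmed8 by 0.06, and Tmed3 by -0.40 (adjusted p = 0.238). Tmed3 read 1089, 1115, 926, 780 and 1300 in Scd1-null mice, against 1770, 1035, 1123, 2085 and 1055 in wild-type mice (96708_at). As at Sec23b, wild-type mice 1 and 4 were high and the other wild-type mice lay among the Scd1-null values; without wild-type mice 1 and 4 the difference was -0.06, and within run 2 it was 0.03. Sec22b, a SNARE of transport between the endoplasmic reticulum and the Golgi, read 883, 992, 828, 621 and 957 in Scd1-null mice, against 960, 604, -211, 888 and 688 in wild-type mice (103953_at). The value below 0 belongs to wild-type mouse 3 and was set to the floor, and the groups overlapped (0.36, adjusted p = 0.353). Within run 2, which holds that mouse, the difference was 0.70. The second Sec22b probe set differed by 0.16, the lectin receptor Lman2 by 0.03 and the cargo receptor Surf4 by -0.07.

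Probe sets of a single gene did not always move together. For 13 pairs of tested probe sets of the same gene, the log2 ratio within each array was compared between genotypes by a two-sided exact permutation test. The ratio was higher in Scd1-null livers for 97722_at over 94511_at of Ssr1 (by 0.49), 94871_r_at over 94870_f_at of Sar1b (by 0.55), and 96007_at and 104249_g_at over 104248_at of Ssr3 (by 0.55 and 0.52), with no overlap between groups (each exact p = 0.00794, 0.0258 after Benjamini-Hochberg adjustment over the 13). So the rise at 3 of the 7 genes was seen at some of their probe sets and was unequal to that of another. The probe sets of Rpn2 (0.09) and Copg1 (0.21), and the first pair of Ssr3 (0.03), had adjusted p of 0.25 or more, and those of Srpr (0.33) and Copb2 (0.41) missed the threshold after adjustment (0.0619 and 0.103). When the probe sets of a gene were averaged first, 5 of 49 member genes rose and 1 fell, while 3.76% of all 5923 genes rose and 2.82% fell.

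**Figure D3:**
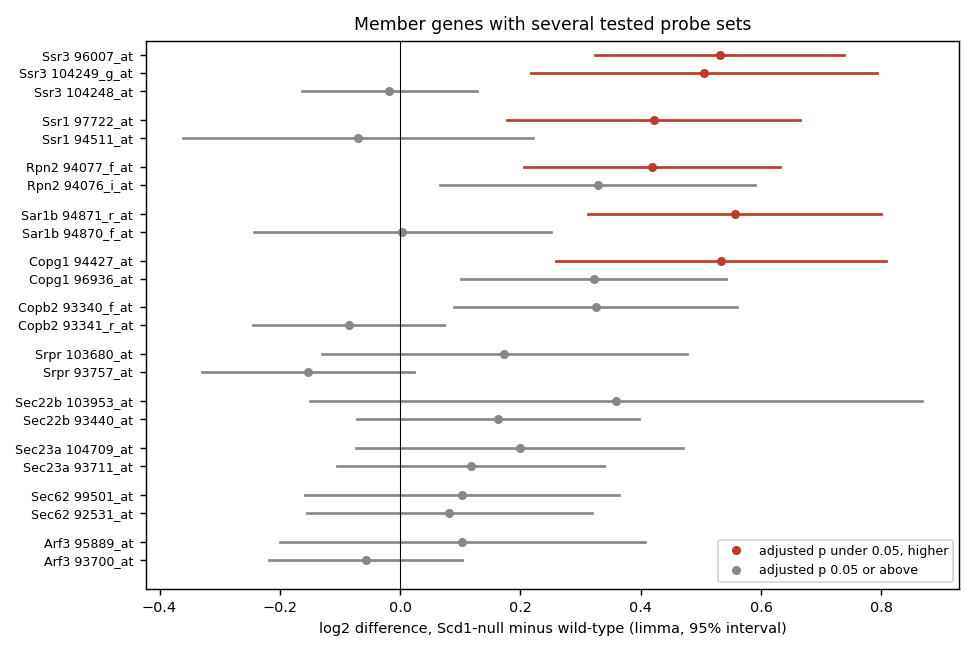
Log2 difference, Scd1-null minus wild-type, with 95% intervals from limma, for the member genes with several tested probe sets. For Ssr3, Ssr1 and Sar1b a red point (called higher) stands beside a grey one near 0, while both points of Rpn2 and of Copg1 lie above 0.

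Within each genotype, single mice ran high or low across many of these genes at once. Scd1-null mouse 4 had the lowest Scd1-null value at 29 of 61 member probe sets (47.5%), against 19.6% of all tested probe sets. Wild-type mouse 1 had the highest wild-type value at 25 (41%), against 16.5% of all, and wild-type mouse 3, the array with the evaporation comment, the lowest at 20 (32.8%), against 19.1% of all. Member genes shared the mouse as their source, so these counts describe the mice and are no test.

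Genes that work beside the members were mostly not called. Of 59 tested probe sets of 49 such genes (Golgi tethers, SNAREs, Rab GTPases, chaperones and stress sensors), 3 rose (5.08%) and 2 fell (3.39%), against 3.57% and 2.76% of all tested probe sets, and the median difference was -0.02, as over all. Mcfd2, the partner of the cargo receptor that exports clotting factors V and VIII, read 4029, 3721, 4164, 3309 and 4141 in Scd1-null mice, against 2391, 2539, 2062, 2645 and 3184 in wild-type mice, a difference of 0.60 (adjusted p = 0.00989, limma). Rab2a, a GTPase of traffic between the endoplasmic reticulum and the Golgi, rose by 0.48 (adjusted p = 0.0338). The SNARE gene Gosr2 rose by 0.46 at 94071_at (adjusted p = 0.0202), while its other 3 tested probe sets differed by -0.34, -0.17 and -0.26. Bcap31, a membrane protein of the endoplasmic reticulum, fell by 0.29 (adjusted p = 0.0358), with overlap and with no call when arrays were scaled to the 75th percentile (adjusted p = 0.118). With the run as a block none of these was called, with differences of 0.83 for Mcfd2 (adjusted p = 0.0819), 0.43 for Rab2a, 0.63 for Gosr2 and -0.30 for Bcap31. Single mice also decided some of these calls: Rab2a was lost without Scd1-null mouse 1, 2 or 5 or wild-type mouse 1, 2 or 3 (adjusted p 0.0503 to 0.0934), Gosr2 without Scd1-null mouse 1 or 5 (0.0502 to 0.0557), and Bcap31 without Scd1-null mouse 2, 3, 4 or 5 or wild-type mouse 1, 2, 3 or 5 (0.0533 to 0.0963). The chaperone gene Hspa5, a usual readout of stress in the endoplasmic reticulum, differed by -0.04, and Canx, a lectin chaperone, by -0.35 (adjusted p = 0.102). Dnajc3, a co-chaperone of Hspa5, differed by 0.50 at 94343_at (adjusted p = 0.102) and by 0.07 and -0.07 at its other probe sets, and Mia3, which helps load large cargo into COPII vesicles, by 0.55 (adjusted p = 0.0632).

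Xbp1 encodes a transcription factor known to raise many secretory genes when its mRNA is spliced during stress. It read 4923, 5148, 4544, 3813 and 5227 in Scd1-null mice, against 6619, 6234, 6014, 8668 and 6805 in wild-type mice (94821_at). All Scd1-null mice lay below all wild-type mice. Xbp1 fell by 0.53 on the log2 scale (adjusted p = 0.0175, limma), with a difference of -0.27 when the run was a block (adjusted p = 0.494), and the call was lost on the deposited scale (-0.38, adjusted p = 0.121). The array value does not tell spliced from unspliced Xbp1 mRNA.

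Promoters of 44 of the 50 genes, in 50 windows, were in the RefSeq table; Tram1 and Tmed7 are named only. The endoplasmic reticulum stress element, CCAAT and CCACG with 9 bases between them, was in 0 of the 50 windows and in 0.119% of 32851 windows of all genes, on either strand. CCAAT alone was in 20 (40%) of the member windows and 37.4% of all, and CCACG alone in 35 (70%) and 32.8% of all. TGACGTGG, known as a core site for Xbp1 and Atf6, was in 5 windows (10%) and 0.676% of all; every such match also holds CCACG on the other strand. The median GC content was 60% in member windows and 52.7% in all. None of the 4 genes with TGACGTGG was called, and their stretches are printed to show the match, in capitals, in place (it reads CCACGTCA where it is on the other strand). They lie at chr11:59228223-59228262 (minus, in 2 overlapping windows of Arf1), chr7:114254685-114254724 (minus), chr9:98563708-98563747 (plus) and chr12:59011988-59012027 (minus). A match of letters is a description and shows no binding.
Arf1: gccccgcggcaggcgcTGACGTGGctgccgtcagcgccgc
Copb1: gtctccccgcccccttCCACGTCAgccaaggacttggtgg
Copb2: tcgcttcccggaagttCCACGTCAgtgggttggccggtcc
Sec23a: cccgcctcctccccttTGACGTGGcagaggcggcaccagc

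**Figure D4:**
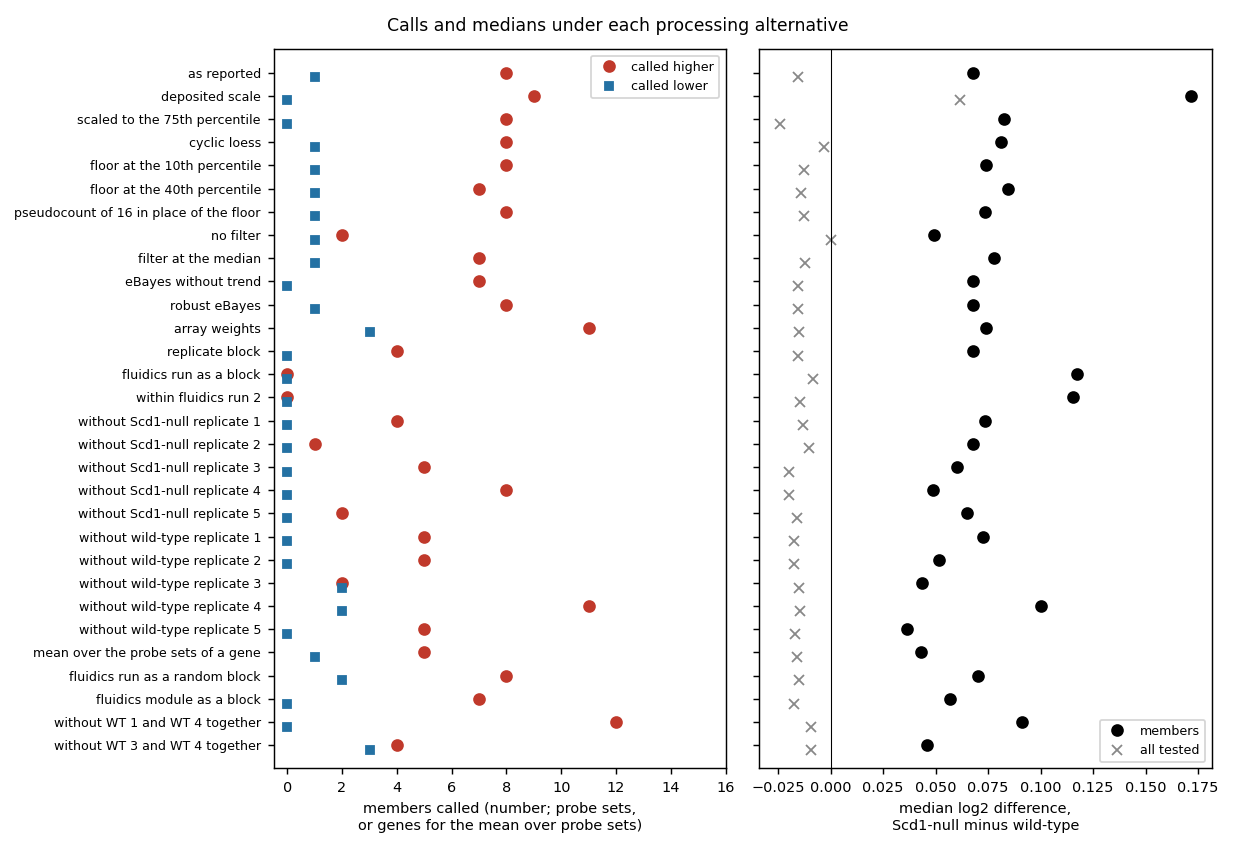
Left, number of member probe sets (genes, where probe sets were averaged) called higher (circles) and lower (squares) under the reported setting and each alternative; right, median log2 difference, Scd1-null minus wild-type, over members (circles) and over all tested probe sets (crosses). The count called higher ranges from 0, with the fluidics run as a block, to 12, without wild-type mice 1 and 4, and the member median lies above that of all tested probe sets in every setting shown.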

How the data were processed

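The authors deposited 1 table of intensity values on a linear scale, whole numbers for 10043 probe sets on 10 arrays, of which 1.19% lay below 0. No source used here says how probe pairs were summarised or scaled. The array settings, deposited as text, gave chip lot, fluidics module and hybridisation time, and a gap of over 60 minutes began a new fluidics run.

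The 66 control probe sets were left out. As trimmed means differed by up to 19.8%, arrays were quantile normalized, then floored at the 25th percentile (intensity 351) and taken to log2. Differences near the floor are understated. Probe sets above the floor on at least 5 arrays were kept (7569). Values printed per mouse are normalized intensities before the floor. Of 9977 probe sets, 8724 had 1 symbol, 346 several and 907 none; 8710 were matched by gene ID to RefSeq GRCm38.p6, which also gave the promoters.

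The genotype effect was fitted in R 4.3.3 by limma 3.58.1 (lmFit and trended eBayes), two-sided and without covariates, using Benjamini-Hochberg adjustment across all kept probe sets; an adjusted p under 0.05 was called. Each mouse is 1 replicate. Precision is limited by having 5 arrays per genotype, with a median residual SD on the log2 scale of 0.16 over members and 0.18 over all. Single values also had an exact permutation test over every assignment of 5 of the 10 mice. Tables were read and drawn with Python 3.11.15, pandas 2.3.3 and matplotlib 3.10.9. The fitting steps were tested on simulated data.

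Members and lists were chosen with earlier results of these data known. Described in full are every called member probe set and, per direction, the 3 largest differences not called; other probe sets of called genes are given by their difference. Alternatives covered the scaling, floor, filter, variance model, blocks and each mouse left out. One promoter sequence is not reported here.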

Additional observations from a re-analysis of the deposited data

Results flagged for a closer look

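One group of wild-type values held a mouse far from the others. For Sec23ip (103871_at), a partner of the COPII subunit Sec23, wild-type mouse 3 read 266, while the other 4 wild-type mice read 455 to 506; on the log2 scale, with the value of 266 raised to the floor of 351, the gap was 0.711 of the group's range. Wild-type mouse 3 carries the comment on evaporation in the array settings, and the part of that in the value was not tested. Across the 15 probe sets described in full, 30 groups were examined in this way, and chance singles out about 1 in 20 groups.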

How the results depend on the processing

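The median member difference (0.07) stayed above 0 in every alternative run, from 0.04 to 0.10 when 1 mouse was left out, and moved beyond its spread only on the deposited scale (0.17; 0.06 over all tested). There all calls split into 480 higher and 96 lower, against 270 and 209 as reported. The 8 members called higher became 2 with no filter (Ssr3 96007_at and Sar1b), 5 when probe sets of a gene were averaged, 4 without wild-type mice 3 and 4, and 1 to 11 when 1 mouse was left out (lowest without Scd1-null mouse 2, highest without wild-type mouse 4). All probe sets called higher also depend on single mice (98 without Scd1-null mouse 2, 497 without wild-type mouse 4). They numbered 152 of 9977 with no filter and 266 of 7582 without wild-type mice 3 and 4. Without wild-type mouse 3, whose array carries the evaporation comment, 2 members stayed called higher (Ssr3 96007_at and Sar1b) and 2 were called lower. Over all 7495 probe sets tested in that setting, 131 were called higher and 88 lower. Removing Scd1-null mouse 5 also left 2 members called higher, beside 121 of 7489, so such a loss is not particular to wild-type mouse 3. The fluidics run as a block, and run 2 alone, kept no member call and lost nearly all calls on the array. The 1 called lower became 0 on the deposited scale, at the 75th percentile, without the trend, with the module as a block and without wild-type mice 1 and 4; it became 3 with array weights and without wild-type mice 3 and 4, 2 with the run as a random block (where the 8 called higher remained), and 0 to 2 with 1 mouse left out. Over all tested probe sets, the numbers called lower where members first had 0 were 96, 223, 184, 130 and 222, in the order named. Where members had 3, they were 497 and 211. With the replicate block, 4 members were called higher and 0 lower, beside 151 higher and 68 lower of all 7569 tested. Same-numbered mice correlated at -0.127 to 0.108, so the numbers do not pair them. The blocks by module and random run, and the removals of 2 mice, were chosen after seeing the data.

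Of 695 single differences under alternatives, 539 kept direction and side of the threshold, 124 lost the call, 13 gained one and 19 turned sign. None of the 19 belonged to a called probe set. The 695 include probe sets not called as reported, which have no call to lose. The 124 therefore all fall on called probe sets, and the 539 do not measure how stable the calls are. Ssr3 104248_at became 0.14 (deposited scale), 0.047 (75th percentile), 0.0029 (loess), 0.060 (run as a block), 0.058 (run 2) and -0.051 to 0.0041 with 1 mouse left out. Sec23b and Tmed3 became 0.030 and 0.031 with the run as a block, and 0.026 and 0.038 within run 2. Sar1b 94870_f_at became -0.053 with the module as a block and -0.055 to 0.085 with 1 mouse left out. Ssr1 94511_at became 0.093 without wild-type mice 1 and 4 and 0.038 without wild-type mice 3 and 4. The causes were not tested. Ssr3 96007_at was called in every alternative fitted per probe set except the run as a block and run 2 alone.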

Other observations

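The 3 member probe sets too dim to be tested had overlapping spreads in the 2 genotypes. Ssr4, the delta subunit of the translocon-associated complex, averaged 113 ± 20 in Scd1-null livers and 124 ± 46 in wild-type livers (101511_at; SD, n = 5 each throughout). This Arf3 probe set averaged 286 ± 68 in Scd1-null livers and 278 ± 71 in wild-type livers (96587_at). This Arf6 probe set averaged 265 ± 94 in Scd1-null livers and 214 ± 97 in wild-type livers (104179_at). The other Arf3 and Arf6 probe sets were tested and not called.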
